A study of Mus musculus with 14 samples.

Results

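Igf2bp3-only peaks are the Igf2bp3-RIP peaks that no Lin28a-RIP peak touched, by at least 1 base, in genes where Lin28a-RIP gave a peak elsewhere. They were found by comparing the positions of both peak tables and the gene to which each peak is annotated, and 3461 of the 19465 Igf2bp3-RIP peaks (17.8%) qualified. These 3461 peaks lie in 1233 of the 2738 genes that hold peaks of both proteins. The other Igf2bp3-RIP peaks comprise 11744 that a Lin28a-RIP peak overlaps in genes with a Lin28a-RIP peak, 17 overlapped in genes that have none of their own, and 4243 without overlap in genes without a Lin28a-RIP peak. Of the 11744, a Lin28a-RIP peak annotated to the same gene overlaps 11718, and 26 are overlapped by peaks of other genes alone.

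The libraries came from cultured mouse muscle stem cells (MuSCs), the progenitors that regenerate skeletal muscle. Lin28a+ MuSCs were sorted by flow cytometry from mice carrying Lin28a-CreERT2 and LSL-tdTomato, in which Lin28a-driven recombination switches on a red reporter, so the sort rests on activity of the Lin28a locus, and control MuSCs have the genotype label Control. Both were grown on Matrigel in DMEM with serum, and no age of the mice or separate culture is given for a replicate, so p-values measure only the spread between these samples, which may be technical. Of 14 libraries, 4 were Igf2bp3-RIP (2 control, 2 Lin28a+), 2 were Lin28a-RIP from Lin28a+ cells alone, and the rest were input RNA and m6A-RIP, 2 per group each. Lin28a itself was not analysed here.

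Igf2bp3 is an RNA-binding protein that recognises m6A-modified and other transcripts and is known to stabilise and help translate them. Lin28a is an RNA-binding protein of embryonic and other stem cells, known for blocking the maturation of let-7 miRNAs and for binding GGAG-containing stretches of messenger RNAs. RIP-seq sequences the RNA that an antibody against a protein brings down with it, and a peak is a stretch where such reads pile up. The comparison asks whether Igf2bp3-RIP peaks without an overlapping Lin28a-RIP peak change with Lin28a+ status differently from overlapped peaks of the same genes. A missing Lin28a-RIP peak does not show that Lin28a is not bound there.

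The Igf2bp3-RIP libraries held 9215355 and 27592959 reads in peaks in control and 12617254 and 34142094 in Lin28a+ MuSCs. The Lin28a-RIP libraries held 36610494 and 33908110 reads over 21616 peaks of 3493 genes. In the input table the columns of the Lin28a+ libraries bear the names of m6A libraries, and they were taken as input because the sample descriptions tie that table to the input samples. Over 7228 genes shared with the m6A-RIP table, their log2 values correlated with those of control input at Pearson's r of 0.937 to 0.938 and with those of Lin28a+ m6A-RIP at 0.527 to 0.531, where control input and control m6A-RIP stood at 0.519 to 0.520. The tables count different features and genes are not replicates, so these values are a description, and every Lin28a+ RNA value below rests on that assignment. The cell type label was checked in the input RNA. All 10 myogenic marker genes on the list passed the filter on low counts, with a summed level of 14771 to 15672 CPM (counts scaled to 1000000 per library) in every library. None of 8 endothelial markers passed it, 1 of 8 macrophage markers did with a sum of 1.29 to 3.27 CPM, and 2 of 8 fibro-adipogenic progenitor markers did with sums of 10.1 and 10.9 CPM in the control libraries and 16.1 and 14.9 CPM in the Lin28a+ libraries. Of 8 pericyte or smooth muscle markers, 3 passed, and their sum was 5591 and 5546 CPM in the control libraries and 7633 and 7616 CPM in the Lin28a+ libraries. The part of such cells in the results below was not tested, and in bulk samples fewer cells of a type and less RNA per cell cannot be told apart.

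Few of these peaks can be shown as letters, because only the stretches around transcript starts and miRNAs were at hand. The mature miRNA and start sequences are those of RefSeq on GRCm38.p6. Among the Igf2bp3-only peaks, 2 hold a mature miRNA, and these are shown because, of the 61 peaks annotated to a miRNA gene, they are the 2 that lie on it. In each line the seed (bases 2 to 8) is in capitals.
mmu-miR-7021-3p, chr4:143136100-143136121, minus strand: uCUCUGUGcuucugcuccuuag
mmu-miR-7078-5p, chr8:117459270-117459289, plus strand: uGUGGGUGguaggagacgcu
mmu-miR-7078-3p, chr8:117459308-117459328, plus strand: uACUUUUUuuaucauccacag
The 3 seeds differ from one another. The Mir7021 peak, which lies in the span of the Prdm2 gene, was counted at 36.1 and 36.7 CPM in the control libraries and 37.1 and 25.9 CPM in the Lin28a+ libraries. The Mir7078 peak, in the span of Cmip, stood at 29.3 and 31.9 CPM in the control libraries and 23.1 and 26.1 CPM in the Lin28a+ libraries. Neither passed the per-peak test described below.

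Transcript starts show where GGAG, the tetramer known for Lin28 binding, occurs or is missing. The window holds bases 21 to 50 of a transcript, read on the transcript's strand only, with GGAG in capitals, and 26 such windows lie within Igf2bp3-only peaks. GGAG was found in 3 of the 26 (11.5%), which are printed with 2 windows of Igf2bp3-only peaks that lack it and 2 of overlapped peaks that hold it.
Cdc42bpa (Igf2bp3-only), chr1:179961109-179961138, plus strand: catgtccGGAGaagtgcgtttgaggcagtt
Six4 (Igf2bp3-only), chr12:73113196-73113225, minus strand: gtgcgagGGAGtgagGGAGGGAGgaaaata
Epb41l1 (Igf2bp3-only), chr2:156475554-156475583, plus strand: gcccgcgagcgagctagcgagcgaGGAGgc
Rrm2 (Igf2bp3-only), chr12:24708274-24708303, plus strand: gcagtcggcggtgcaccggattccagctgt
Setd5 (Igf2bp3-only), chr6:113104955-113104984, plus strand: tgttggctgaggctctgcagttcaccccca
Flnc (overlapped), chr6:29433276-29433305, plus strand: cgccccgGGAGagagagagagccctagccg
Vcan (overlapped), chr13:89742463-89742492, minus strand: tctttGGAGtgactgagctacGGAGctctt
Of 72 windows within overlapped peaks, 21 held GGAG (29.2%), and of all 32851 windows 22.3% did. These windows are few and cover only a small stretch of a peak, so the shares describe those letters and say nothing of binding.

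Igf2bp3-only peaks were sparse in most genes and crowded in a few. A median gene held 2 of them, 482 genes held 1, 517 held 2 to 4 and 234 held 5 or more. The largest number was 15, in Ank3, Nfat5 and Setd5. In 1115 genes they occurred beside overlapped Igf2bp3-RIP peaks of the same gene (3228 and 4706 peaks), and in 118 genes with 233 Igf2bp3-only peaks no Igf2bp3-RIP peak was overlapped at all. Genes with Igf2bp3-only peaks had a median span of 54.9 kb, against 36.9 kb for the 1505 genes in which every Igf2bp3-RIP peak was overlapped.

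The distance from an Igf2bp3-only peak to the nearest Lin28a-RIP peak had a median of 3021 bp, with quartiles of 976 and 11349 bp. Only 31 lay within 100 bp of one, while 2951 were 500 bp or more away and 948 (27.4%) were 10000 bp or more away. At the edge of the rule, the closest Igf2bp3-only peaks included those of Anxa3 (3 bp from a Lin28a-RIP peak, mean 12.9 CPM) and Nfib (9 bp, 2.88 CPM). Just outside it, the overlapped peaks with the shortest overlap were those of Cfap298 (5 bases, 8.18 CPM), Pde4b (5 bases, 29.5 CPM) and Itpripl2 (8 bases, 29.5 CPM).

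Protein-coding genes took 3337 of the 3461 peaks, lncRNA genes 49 and miRNA genes 61. The annotated gene was not always the gene that the peak lies in. The span of the annotated gene covered 2698 Igf2bp3-only peaks (78.0%), against 83.7% of overlapped peaks in the 1115 genes that hold both. Of the 763 that fell outside it, 695 lay in the span of another gene and 68 in none. The 61 peaks annotated to miRNA genes show this most: they belong to 29 miRNA genes, and 2 of them lie on the miRNA gene. Of peaks inside their gene, a further 154 also lay in the span of another gene. Without the exon structure of the files' build, exons, introns and untranslated regions could not be assigned.

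Within genes the peaks leaned toward the 3′ end in both classes. The 2129 Igf2bp3-only peaks whose midpoint lies in a gene of known strand had a median at 77.9% of its span from the start, and 31.3% lay in the last 10% of the span. The 3162 overlapped peaks of the genes with both classes had a median at 75.6% with 27.9% in the last 10%. In 654 genes where both classes had a position, Igf2bp3-only peaks lay more upstream, by their medians, in 353 and more downstream in 301. The transcript to which the peak is annotated was also in the m6A-RIP table for 63.8% of Igf2bp3-only and 61.5% of overlapped peaks.

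Igf2bp3-only peaks had smaller median widths and counts than overlapped peaks. A wider peak has more room to meet the rule of a 1-base overlap, so width is partly set by the rule and is given as a description. Their width ranged from 200 to 3380 bp with a median of 238 bp, against a median of 300 bp for overlapped peaks of the genes that hold both classes. Their median level in the 4 libraries was 17.1, 17.3, 17.2 and 17.2 CPM, and that of overlapped peaks was 27.5 and 27.5 CPM in the control libraries and 26.2 and 27.5 CPM in the Lin28a+ libraries. Over the 15205 Igf2bp3-RIP peaks of all 2738 genes with peaks of both proteins, of which 22.8% were Igf2bp3-only, the weakest quartile per kb of peak held 32.6% Igf2bp3-only peaks, the next 24.1%, then 20.3%, and the strongest 14.1%. A peak of low level is also harder to call in the Lin28a-RIP, and the part of that in the class was not tested. Peaks in the 118 genes with no overlapped peak were weaker still, with a median of 13.2 CPM, and lay a median of 10257 bp from a Lin28a-RIP peak.

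Divided by peak width, the levels lay closer together. Per kb, the median was 59.9 and 60.4 CPM in the control libraries and 60.6 and 61.0 CPM in the Lin28a+ libraries for Igf2bp3-only peaks, and 76.3, 75.8, 71.5 and 76.0 CPM in the same order for overlapped peaks of the genes with both classes. Compared within each gene as well, the median of the log2 ratio of Igf2bp3-only to overlapped level per kb within the 1115 genes was -0.17 and -0.14 in the control libraries and -0.15 and -0.17 in the Lin28a+ libraries, with a pseudocount of 1 CPM per kb. Those 4 medians place the overlapped peaks 1.13, 1.10, 1.11 and 1.13 times higher, and neither group stands apart. The median gene had 29.3% and 30.3% of its Igf2bp3-RIP reads in Igf2bp3-only peaks in control and 29.8% and 30.1% in Lin28a+ MuSCs. An Igf2bp3-only peak was the strongest peak per kb in 433 of the 1115 genes (38.8%), and such peaks made up 40.7% of all peaks in those genes.

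**Figure D1:**
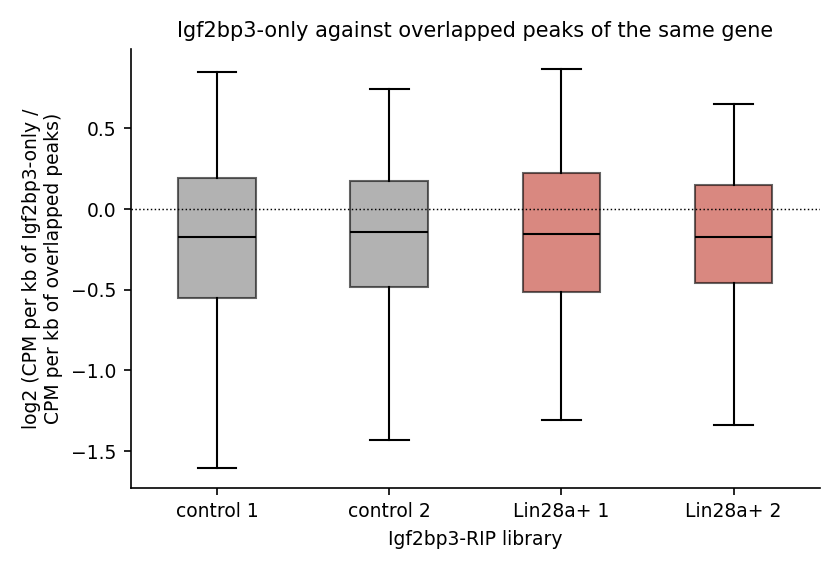
Log2 ratio of the level (CPM per kb) of Igf2bp3-only to overlapped peaks of the same gene, on the vertical axis, in each of the 4 Igf2bp3-RIP libraries for 1115 genes. Boxes span the quartiles with the median as a line and whiskers reach the 5th and 95th percentiles; the medians lie between -0.17 and -0.14 in all 4 libraries.

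The most covered Igf2bp3-only peaks were annotated to Qser1, Usp36 and Sparc. The peak annotated to Qser1 (chr2:104829591-104832970) reached 750 and 1284 CPM in the control libraries and 506 and 891 CPM in the Lin28a+ libraries, but it lies in the span of Prrg4 and 39974 bp from any Lin28a-RIP peak. The peak annotated to Usp36, a nucleolar deubiquitinase, lies in Timp2, an inhibitor of matrix metalloproteinases (chr11:118301199-118302574), and was counted at 759 and 1083 CPM in the control libraries and 788 and 532 CPM in the Lin28a+ libraries. Sparc, a matricellular protein gene, holds its peak inside its own span (chr11:55395209-55395732), with 558 and 846 CPM in the control libraries and 772 and 974 CPM in the Lin28a+ libraries. In all 3 peaks the groups overlapped.

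Between Lin28a+ and control MuSCs, Igf2bp3-only peaks differed about as often as Igf2bp3-RIP peaks in general. edgeR's quasi-likelihood test over all 19465 peaks, with a Benjamini-Hochberg adjusted p under 0.05, called 24 peaks (0.123%), and 1 of the 3461 Igf2bp3-only peaks was among them. At an unadjusted p under 0.05, 189 Igf2bp3-only peaks (5.46%) were counted, 72 higher and 117 lower in Lin28a+, where 5.22% of all peaks were. An absolute log2 fold change over 1 was found in 46 that were higher and 67 that were lower, or 3.26% of them, where 3.3% of all peaks had one. Their median log2 fold change was 0.04, with quartiles of -0.19 and 0.25 and a median SE of 0.32.

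Overlapped peaks of the same genes gave similar figures. Of 4706, 2 were called, 193 (4.10%) had an unadjusted p under 0.05, 2.21% had an absolute log2 fold change over 1, and the median was -0.01. For 4243 peaks in genes without a Lin28a-RIP peak the test called 18, with 387 (9.12%) at an unadjusted p under 0.05 and a median of 0.12. DESeq2 called 40 Igf2bp3-only peaks (1.16%), 20 higher and 20 lower, where it called 1.35% of all peaks. The main test had no term for the replicate number. With such a replicate block edgeR called 316 Igf2bp3-only peaks (9.13%), where it called 10.2% of all peaks. Leaving out 1 library at a time gave 8 to 28 calls by edgeR (0.231% to 0.809% of Igf2bp3-only peaks), the most without Lin28a+ replicate 1, where 0.555% to 0.992% of all peaks were called in the same fits.

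**Figure D2:**
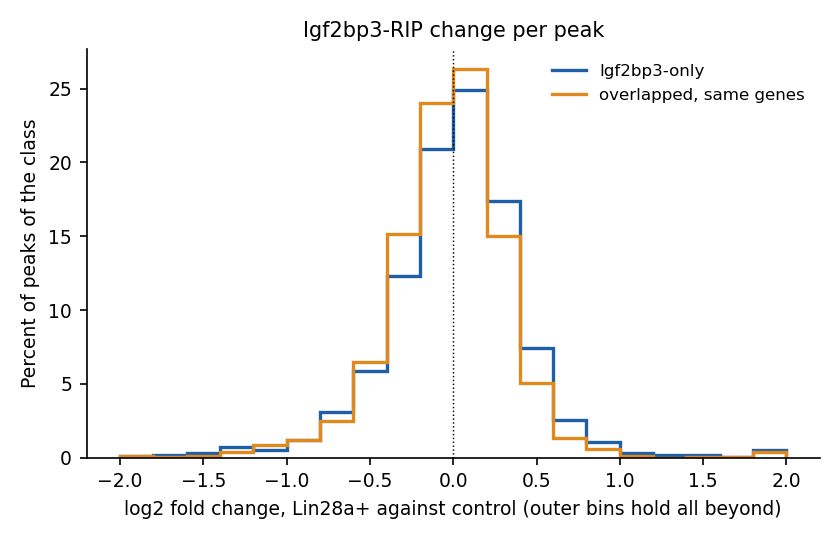
Percent of peaks, on the vertical axis, by log2 fold change between Lin28a+ and control MuSCs for 3461 Igf2bp3-only peaks and 4706 overlapped peaks of the same genes, in bins 0.2 wide with the outer bins holding all values beyond. Both outlines center near 0, with medians of 0.04 and -0.01.

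Strbp, which encodes a double-stranded RNA-binding protein, held the Igf2bp3-only peak that was called. That peak (chr2:37583791-37584260, inside the gene) was counted at 1.98 and 1.64 CPM in the control libraries and 15.6 and 14.8 CPM in the Lin28a+ libraries. Both Lin28a+ libraries lay far above both controls, with a log2 fold change of 3.09 ± 0.32 (SE) and an adjusted p of 0.0424 by edgeR. With at least 10 counts in every library the peak was no longer called (adjusted p of 0.0746 by edgeR), and it was called in the other alternatives. It lies 9785 bp from the nearest Lin28a-RIP peak. The level of Strbp RNA was likewise higher, at 2.25 and 2.09 CPM in the control libraries and 6.29 and 5.52 CPM in the Lin28a+ libraries (log2 fold change 1.44 ± 0.16).

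The next 4 higher peaks by p did not pass the threshold in edgeR's main test, although DESeq2 called those of Fndc3c1, Slc8a1 and Nfib, and edgeR called Slc8a1 in 3 of the 4 fits with 1 library left out and Nfib in 1 of them. Fndc3c1 (chrX:106439251-106439465), a fibronectin type III domain gene, had 0.989 and 1.02 CPM in the control libraries and 13.0 and 9.08 CPM in the Lin28a+ libraries, with an adjusted p of 0.0502 by edgeR, and it passed with RLE factors (0.0496), with total counts (0.0409) and with any 1 library left out. Its RNA rose from 2.44 and 2.90 to 11.2 and 9.81 CPM. The Slc8a1 peak (chr17:81648210-81648409), in the gene of a sodium-calcium exchanger, had 0.550 and 1.17 CPM in the control libraries and 6.92 and 5.04 CPM in the Lin28a+ libraries. Nfib, a transcription factor gene, had 5.06 and 3.94 CPM in the control libraries and 13.2 and 18.6 CPM in the Lin28a+ libraries at chr4:82296566-82296948. In these genes all Lin28a+ values exceeded all control values. The peaks were picked by p, and the groups did not overlap in 1128 of the 3461 Igf2bp3-only peaks and in 6182 of all 19465 peaks.

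The peak annotated to Utp6, a gene for a component of the small-subunit processome, differed most in size. It lies at chr11:79873257-79873960, outside the span of Utp6 and of any other gene, 60405 bp from a Lin28a-RIP peak. It held 5 and 0 reads in the control libraries and 860 and 869 reads in the Lin28a+ libraries, or 0.550 and 0 CPM against 68.4 and 24.9 CPM. The adjusted p was 0.0972 by edgeR, and since 1 control library is at 0 its fitted log2 fold change of 8.17 ± 1.15 depends on the prior count. With any 1 library left out edgeR called the peak, with fitted log2 fold changes of 6.41 to 13.18. RNA of Utp6 itself was 55.3 and 57.0 CPM in the control libraries and 49.9 and 47.6 CPM in the Lin28a+ libraries.

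None of the lower peaks passed in edgeR's main test, which used all libraries without a replicate block. DESeq2 called 20, among them the 5 named here. With a replicate block edgeR called 189 lower Igf2bp3-only peaks, also with these 5 among them, in a fit that called 10.2% of all peaks. With 1 library left out edgeR called 7 lower peaks without control replicate 1, 8 without Lin28a+ replicate 1, 1 without Lin28a+ replicate 2 and 0 without control replicate 2 (152 Igf2bp3-only peaks at an unadjusted p under 0.05). Of the 5, Anxa3 was called without control replicate 1 or Lin28a+ replicate 1 (adjusted p of 0.00687 and 0.0197 by edgeR) and Pde4dip without control replicate 1 (0.0401). The 5 with the smallest p had unadjusted values between 0.000569 and 0.00255 (edgeR quasi-likelihood test), and in each all control values exceeded all Lin28a+ values. Anxa3, an annexin gene, had 16.9 and 24.9 CPM in the control libraries and 5.327 and 4.495 CPM in the Lin28a+ libraries at chr5:96783195-96783703, a position in the span of Fras1. RNA of Anxa3 was 40.5 and 41.4 CPM in the control libraries and 38.9 and 39.3 CPM in the Lin28a+ libraries. The peak annotated to Gtf2a1, which encodes a subunit of the general transcription factor TFIIA, lies in Ston2 (chr12:91637729-91638231) and had 26.4 and 24.6 CPM in the control libraries and 8.83 and 7.39 CPM in the Lin28a+ libraries.

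Ank3, Sema3e and Pde4dip held their lower peaks within their own spans. Ankyrin-G is the membrane scaffold encoded by Ank3, and its peak at chr10:69897857-69898308 had 43.0 and 46.3 CPM in the control libraries and 15.3 and 14.4 CPM in the Lin28a+ libraries. Sema3e, a secreted semaphorin gene, had 15.5 and 17.4 CPM in the control libraries and 5.80 and 4.70 CPM in the Lin28a+ libraries at chr5:14256400-14256858. Pde4dip encodes myomegalin of the Golgi and centrosome, and its peak at chr3:97713271-97713470 had 13.7 and 21.5 CPM in the control libraries and 6.04 and 5.67 CPM in the Lin28a+ libraries. RNA of all 3 genes fell, with log2 fold changes of -1.12 ± 0.17 for Ank3, -1.37 ± 0.06 for Sema3e and -1.43 ± 0.03 for Pde4dip.

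**Figure D3:**
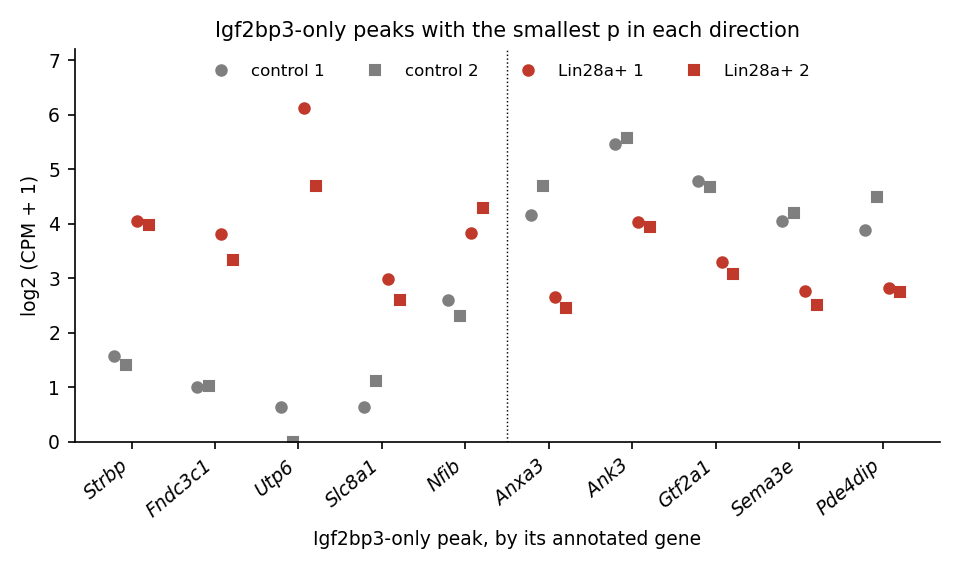
Level of the 5 higher and 5 lower Igf2bp3-only peaks with the smallest p, as log2(CPM + 1) on the vertical axis, by the gene each is annotated to; grey marks control and red Lin28a+ libraries, circles replicate 1 and squares replicate 2. In each of the 10 peaks, which were picked by p, the control and Lin28a+ values do not overlap. The groups did not overlap in 6182 of all 19465 peaks either. Of the 10, 1 peak, Strbp, passed the adjusted threshold in edgeR's main test without a replicate block, where DESeq2 called 9 of the 10, all but Utp6.

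The within-gene comparison sets Igf2bp3-only against overlapped peaks of the same gene. This cancels the RNA level and pull-down of a gene in a library only where both classes lie on the same transcript, and in 382 of the 1115 genes at least 1 peak lies outside the span of the gene. Counts were summed per gene and class, and edgeR's quasi-likelihood test asked whether the ratio of the classes differed between Lin28a+ and control MuSCs. In this main test, which had no replicate block, none of 1115 genes was called (0.0%), with a smallest adjusted p of 0.369. With a replicate block edgeR called 40 of the 1115 genes, 27 toward Igf2bp3-only and 13 toward overlapped peaks. In the main test an unadjusted p under 0.05 was found in 33 genes (2.96%), of which 25 shifted toward Igf2bp3-only and 8 toward overlapped peaks. DESeq2 called 6 genes (0.538%), 4 toward Igf2bp3-only and 2 toward overlapped peaks, and edgeR called 4 without Lin28a+ replicate 1 and 1 without Lin28a+ replicate 2.

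The shifts were small and centered on 0. Their median was 0.0023 on the log2 scale, with quartiles of -0.10 and 0.11, and 562 genes shifted toward Igf2bp3-only and 553 toward overlapped peaks. The 95% interval of a gene's shift reached a median of 0.59 to either side. In 865 of the 1115 genes it lay wholly between -1 and 1, which is where a 2-fold shift in either direction lay outside the interval. A shift over 1 in size was fitted in 17 genes, 12 toward Igf2bp3-only and 5 toward overlapped peaks.

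The position of the peaks went with this count. In 733 genes with every peak of both classes inside the span of the gene, 3 (0.409%) had an unadjusted p under 0.05, and in the 382 genes with at least 1 peak outside it 30 (7.85%) did. The 3 genes were named after their values were seen. They are Arid2, described below, Adgrl2, a latrophilin adhesion receptor gene, and Togaram1, a microtubule-regulator gene. The share of reads in Igf2bp3-only peaks of Adgrl2 was 1.88% and 2.35% in control and 3.68% and 3.13% in Lin28a+ MuSCs. For Togaram1 it was 4.72% and 5.34% in control and 7.91% and 6.89% in Lin28a+ MuSCs. When the fit used only peaks inside the span of their gene, an alternative chosen after seeing the data, 6 of 813 genes had an unadjusted p under 0.05 and none was called.

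The 5 genes with the smallest p among those leaning toward Igf2bp3-only peaks in Lin28a+ MuSCs were Strbp, Utp6, Pitpnb, Ercc5 and Slc10a4. In Strbp, 3 Igf2bp3-only peaks took 29.0% and 27.6% of the reads in control and 59.2% and 63.9% in Lin28a+ MuSCs, a log2 shift of 2.03 ± 0.24 (SE). The 3 peaks lie inside Strbp, but of its 2 overlapped peaks 1 does, and with that peak alone as the comparison the shift was -1.35. The Utp6 share, from the intergenic peak above, was 0.196% and 0% in control and 17.9% and 6.77% in Lin28a+ MuSCs.

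Pitpnb encodes a phosphatidylinositol transfer protein. Its 4 Igf2bp3-only peaks took 41.2% and 34.1% of the reads in control and 59.1% and 57.9% in Lin28a+ MuSCs (shift 1.23 ± 0.22), and none of its 4 overlapped peaks lies in the gene. Ercc5, the XPG endonuclease of nucleotide excision repair, had 65.6% and 65.7% in control and 79.6% and 79.9% in Lin28a+ MuSCs (1.04 ± 0.20), from 1 Igf2bp3-only peak that lies in the neighbouring Bivm. Slc10a4, a gene of the bile acid transporter family, had 22.8% and 18.2% in control and 37.4% and 41.0% in Lin28a+ MuSCs (1.35 ± 0.26), with its Igf2bp3-only peak in Slain2. In each of these 5 genes the Lin28a+ shares lay above both control shares. The genes were picked by p from the same shares, so that separation is no further result. In each of them the peaks of at least 1 class lay wholly or partly in another gene or between genes.

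Among the genes leaning toward overlapped peaks, Gtf2a1 had the smallest p. Its 9 Igf2bp3-only peaks took 37.3% and 35.3% of the reads in control and 18.0% and 13.7% in Lin28a+ MuSCs, a shift of -1.61 ± 0.21, and 1 of the 9 lies in Gtf2a1 itself. With peaks inside the span alone the Gtf2a1 shift was -0.20. Plxdc2, which encodes a plexin domain protein, had 93.89% and 92.03% in control and 82.1% and 73.2% in Lin28a+ MuSCs, a shift of -1.91 ± 0.33. Of its 10 Igf2bp3-only peaks 9 lie in the gene and its 1 overlapped peak does not.

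In Usp34, Cdkl2 and Arid2 the shift rested on 1 Igf2bp3-only peak of a few percent of the reads. Usp34, a deubiquitinase gene with 44 overlapped peaks, had 1.19% and 1.18% in control and 0.698% and 0.835% in Lin28a+ MuSCs (-0.64 ± 0.16). Cdkl2, a kinase gene, had 1.422% and 1.285% in control and 0.812% and 0.418% in Lin28a+ MuSCs (-1.26 ± 0.35). Its Igf2bp3-only peak, of 32 and 82 reads in control and 29 and 41 in Lin28a+ MuSCs, lies in the gene, and none of its 3 overlapped peaks does. RNA of Cdkl2 fell (log2 fold change -1.70 ± 0.21). Arid2, the gene of a subunit of the PBAF chromatin remodeller, had 3.27% and 2.83% in control and 2.02% and 2.06% in Lin28a+ MuSCs (-0.58 ± 0.17). Arid2 was the only gene of these 10 with all peaks of both classes inside its span.

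**Figure D4:**
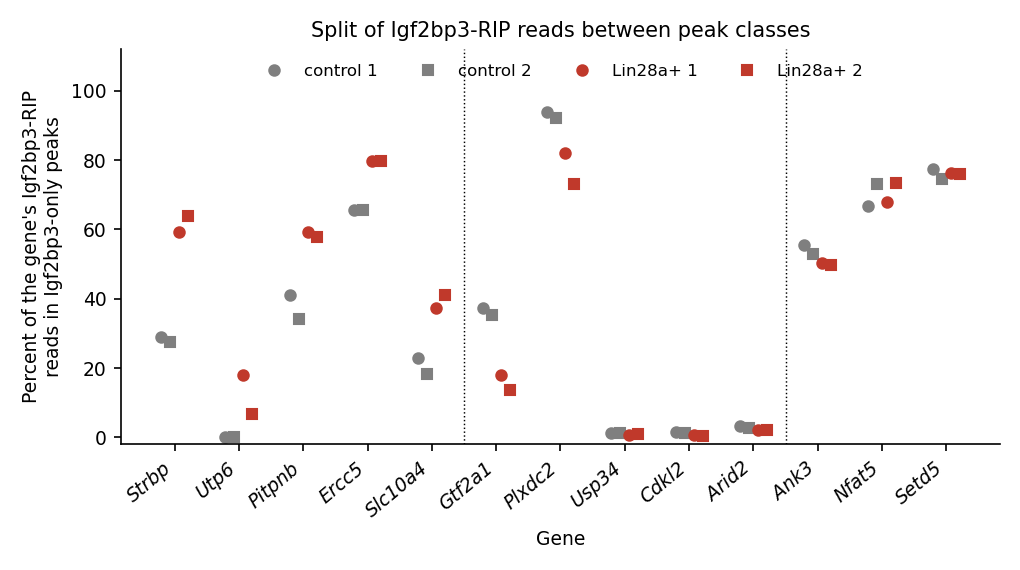
Percent of a gene's Igf2bp3-RIP reads that lie in Igf2bp3-only peaks, on the vertical axis, in each library for the 5 genes with the smallest p toward Igf2bp3-only peaks, the 5 with the smallest p toward overlapped peaks and the 3 genes with most Igf2bp3-only peaks, divided by dotted lines; grey marks control and red Lin28a+ libraries, circles replicate 1 and squares replicate 2. Strbp moves from 29.0% and 27.6% to 59.2% and 63.9%, while Nfat5 and Setd5 overlap between groups. No gene passed the adjusted threshold in edgeR's main test, where DESeq2 called Strbp, Utp6, Pitpnb, Slc10a4, Gtf2a1 and Plxdc2. With a replicate block edgeR called each of the 10 genes picked by p.

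The 3 genes with 15 Igf2bp3-only peaks each behaved differently. In Ank3, all 15 had an unadjusted p under 0.05 in edgeR's main test, with log2 fold changes between -1.87 and -1.03, although none passed the adjusted threshold there. These peaks all lie in the span of 1 gene and are not replicates, and they lay 85 to 55321 bp from a Lin28a-RIP peak. The 8 overlapped peaks of Ank3 summed to 2651 and 12115 reads in control and to 1846 and 5440 reads in the Lin28a+ libraries, as raw reads from libraries of unequal depth. The share of reads in Igf2bp3-only peaks was 55.5% and 52.9% in control and 50.3% and 49.9% in Lin28a+ MuSCs (shift -0.24 ± 0.15). RNA of Ank3 was lower too, at 4.12 and 4.18 CPM in the control libraries and 1.97 and 1.84 CPM in the Lin28a+ libraries.

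Nfat5, the transcription factor of the osmotic stress response, held 15 Igf2bp3-only and 3 overlapped peaks. Its 15 peaks ranged from 6.75 to 72.0 CPM and from -0.34 to 0.04 in log2 fold change, and none had an unadjusted p under 0.05. Its RNA, in contrast, fell from 16.3 and 18.2 CPM to 6.09 and 6.13 CPM (log2 fold change -1.50 ± 0.10). Setd5, a chromatin regulator gene, had 15 peaks between 20.1 and 86.8 CPM with log2 fold changes from 0.01 to 0.35, and its RNA was 41.8 and 40.4 CPM in the control libraries and 39.9 and 40.9 CPM in the Lin28a+ libraries. The share of reads in Igf2bp3-only peaks of both genes overlapped between groups.

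DNA repair genes were the interest of the study, and 17 of the 60 on the list used here held Igf2bp3-only peaks. These 49 peaks were 13.3% of the Igf2bp3-RIP peaks of the list's Lin28a-bound genes, against 22.8% over all such genes. In edgeR's main test none was called or had an unadjusted p under 0.05, and their median log2 fold change was -0.08, against -0.01 over all peaks. In the within-gene comparison 8 genes leaned toward Igf2bp3-only and 9 toward overlapped peaks, with a median of -0.01. None was called in the main test, while with a replicate block edgeR called Ercc5 (adjusted p of 0.00553). RNA of these 17 genes was higher in 1 and lower in 9, and m6A, tested in 15, was higher in 1 and lower in 12. Among all genes with Igf2bp3-only peaks 55.8% were lower in RNA and 67.2% in m6A, so nothing particular to the list is read from these counts.

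Several genes that the study names held Igf2bp3-only peaks. Ino80d, which encodes a subunit of the INO80 remodelling complex, had 12 beside 2 overlapped peaks, all inside the gene, with mean levels between 11.4 and 34.7 CPM and log2 fold changes between -0.19 and 0.32. These 12 peaks took 69.3% and 72.0% of the gene's reads in control and 71.1% and 71.0% in Lin28a+ MuSCs. Fbxw7, the substrate receptor of an SCF ubiquitin ligase, had 5 of its 6 Igf2bp3-RIP peaks in this class, which took 83.6% and 83.5% of reads in control and 79.9% and 79.4% in Lin28a+ MuSCs. Its farthest peak lay 163373 bp from a Lin28a-RIP peak. Wrn, the RecQ helicase gene of Werner syndrome, had 5 with 67.2% and 65.0% in control and 68.6% and 68.1% in Lin28a+ MuSCs.

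Fancm, the translocase gene of the Fanconi anaemia pathway, had 3 weak Igf2bp3-only peaks. The strongest was counted at 7.15 and 5.40 CPM in the control libraries and 4.61 and 4.75 CPM in the Lin28a+ libraries (chr12:65113657-65113860), and the 3 took 33.2% and 36.1% of reads in control and 28.5% and 37.9% in Lin28a+. Usp1, the deubiquitinase of the same pathway, had 1 (chr4:98932692-98932904) at 22.1 and 8.76 CPM in the control libraries and 32.3 and 17.2 CPM in the Lin28a+ libraries, so the groups overlapped. The 3 peaks annotated to Ercc3, a helicase gene of TFIIH, all lie in Map3k2. None of these peaks or genes passed either of edgeR's main tests. The 95% interval of the within-gene shift ran from -0.38 to 0.43 for Ino80d and from -0.37 to 0.67 for Wrn, was about as wide as the latter for Fbxw7 (-0.89 to 0.15), and was wider for Fancm (-0.86 to 0.68) and Usp1 (-0.61 to 1.11).

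In the other lists edgeR's main tests likewise called no peak and no gene in the within-gene comparison. With a replicate block the within-gene test called Arid2 of the chromatin and transcription list (adjusted p of 0.0199 by edgeR). Calls with the block were not counted per list. Uncalled shifts lay toward Igf2bp3-only and toward overlapped peaks in 8 and 19 chromatin and transcription genes, 5 and 14 RNA-binding genes, 3 and 9 cell cycle genes, 1 and 3 muscle genes and 1 and 3 cytoskeleton and matrix genes, with list medians from -0.11 to -0.01 against 0.0023 over all 1115 genes. Chromatin and transcription regulators held the most, with 108 Igf2bp3-only peaks in 27 of 60 genes (19.4% of the peaks of their Lin28a-bound genes) and a median log2 fold change of 0.03. RNA-binding and RNA granule genes held 54 in 19 of 63 genes (17.5%, median 0.04), and cell cycle and mitosis genes 29 in 12 of 55 (8.19%, median 0.24). Muscle progenitor and sarcomere genes held 16 in 4 of 57 genes (8.16%, median 0.04). Cytoskeleton and matrix genes, whose transcripts carry many Lin28a-overlapped peaks, held 21 in 5 of 57 genes, which is 3.50% of their peaks, with a median log2 fold change of 0.22.

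Within these lists, the genes with the smallest p in the within-gene test were mostly ones with 1 Igf2bp3-only peak. Atm, the kinase gene of the DNA double-strand break response, had 4.39% and 3.93% of its reads there in control and 3.48% and 3.53% in Lin28a+ MuSCs. Incenp, of the chromosomal passenger complex, had 17.4% and 33.4% in control and 13.1% and 18.8% in Lin28a+ MuSCs, so the groups overlapped. Eif4g3, a translation initiation factor gene, had 4.46% and 5.73% in control and 3.39% and 4.34% in Lin28a+ MuSCs. Hnrnpa3 (shift -2.06 ± 1.08), Tnrc6c (-0.61 ± 0.58), Aspm (-0.28 ± 0.22) and Ccnd2 (-0.13 ± 0.15) had values that overlapped between groups.

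Chd6, a chromatin remodeller gene, had 3.97% and 2.80% in control and 2.77% and 2.42% in Lin28a+ MuSCs, and Phf3, which binds RNA polymerase II, overlapped between groups. Among muscle genes, Pax7, the transcription factor that marks MuSCs, had 3 Igf2bp3-only peaks with 60.5% and 62.1% of its reads in control and 61.7% and 56.4% in Lin28a+ MuSCs. Six4, a myogenic homeobox gene, had 6.93% and 4.33% in control and 5.92% and 3.39% in Lin28a+ MuSCs, and Bcl9, a Wnt co-activator gene, 84.7% and 89.0% against 83.4% and 88.7%. Of cytoskeletal genes, the vinculin gene Vcl had 1.35% and 1.32% in control and 2.99% and 1.85% in Lin28a+ MuSCs, from a peak that lies in Ap3m1, while Kif1b and Rock1 overlapped between groups.

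Among the genes with Igf2bp3-only peaks, RNA was called lower in Lin28a+ MuSCs more often than higher. In the input libraries, edgeR's quasi-likelihood test at an adjusted p under 0.05 found 110 of 1083 genes higher (10.2%) and 604 lower (55.8%). Of all 11317 genes tested, 28.1% were higher and 28.7% lower. DESeq2 called 38 of the 1083 genes higher and 307 lower, where it called 13.1% of all genes higher and 13.8% lower. The median log2 fold change was -0.38, against 0.01 over all genes, and 124 of the genes (11.4%) were called lower by more than 2-fold and 9 (0.831%) higher, where 8.73% of all genes were lower and 4.51% higher by that much. Genes in which every Igf2bp3-RIP peak was overlapped had 246 higher and 529 lower of 1236, with a median of -0.18. Across all 3766 genes with an Igf2bp3-RIP peak 594 were higher and 1739 lower, with a median of -0.26.

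The m6A-RIP counts, summed per gene, gave the same order. Of 1056 genes with Igf2bp3-only peaks, 103 were higher (9.75%) and 710 lower (67.2%), whereas of all 9416 genes tested 32.5% were higher and 33.8% lower. The median log2 fold change was -0.44, against -0.21 in 1182 genes with overlapped peaks alone and -0.27 over 3664 genes with an Igf2bp3-RIP peak. The m6A-RIP values are counts that were not divided by input, so they include the difference in RNA. Igf2bp3-RIP counts are scaled within the bound peaks, and a shift shared by all of them would not be visible in the per-peak values above.

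Gene span moved with these shares. Over all genes tested for RNA, 14.9% were lower in the shortest quartile of span, then 20.4%, 30.7% and, in the longest quartile, 48.5%. Genes with Igf2bp3-only peaks had 38.2%, 38.1%, 47.7% and 65.2% lower in the same quartiles, with 598 of them in the longest. For m6A the shares were 23.3%, 25.6%, 35.7% and 50.4% over all genes and 60.6%, 48.0%, 65.5% and 73.4% in genes with Igf2bp3-only peaks. Genes with overlapped peaks alone had 27.6%, 30%, 38.2% and 54.8% lower in RNA and 45.8%, 40.9%, 46.3% and 62.0% lower in m6A. Whether RNA level takes part in these shares was not tested.

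**Figure D5:**
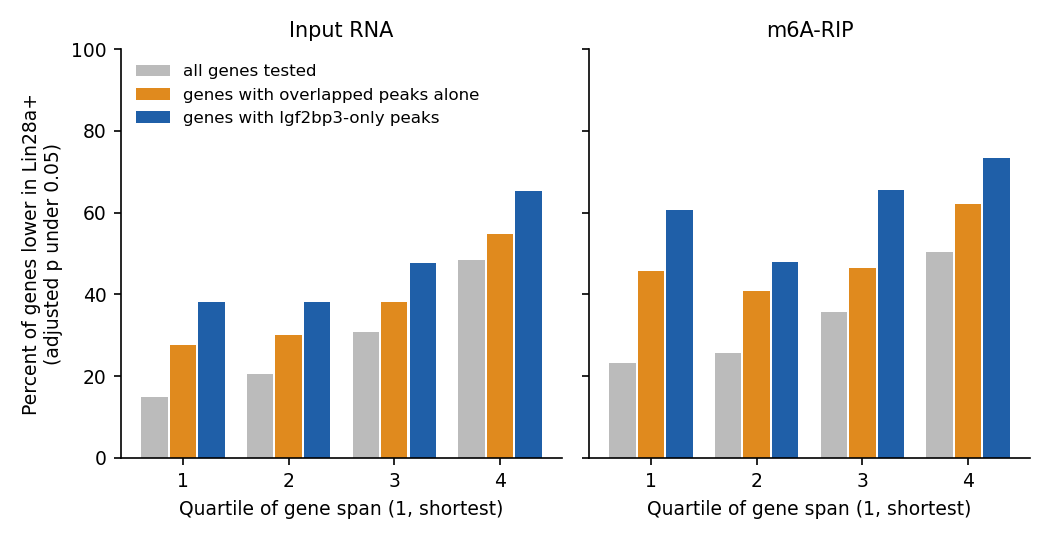
Percent of genes lower in Lin28a+ than in control MuSCs at an adjusted p under 0.05, on the vertical axis from 0, for input RNA (left) and m6A-RIP (right) by quartile of gene span, from the shortest (1) to the longest (4). Grey bars are all genes tested, orange bars genes with overlapped peaks alone, which reach 54.8% and 62.0% in the longest quartile, and blue bars genes with Igf2bp3-only peaks, which reach 65.2% for RNA and 73.4% for m6A in the longest quartile, against 48.5% and 50.4% of all genes.

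Across genes, the change in summed Igf2bp3-only counts went weakly with the change in RNA. Over 862 genes with both classes and both assays, Pearson's r was 0.33 (Spearman's rho 0.30) with RNA and 0.33 (0.30) with m6A. For overlapped peaks of the same genes it was 0.34 (0.27) with RNA and 0.38 (0.30) with m6A. Genes are not independent replicates, and all of them share the same few libraries, so these values are given as a description.

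Single genes show both kinds of pattern. Plxdc2 RNA fell from 45.5 and 45.2 to 9.04 and 10.2 CPM (log2 fold change -2.23 ± 0.07) with m6A at 128 and 126 CPM in the control libraries and 138 and 118 CPM in the Lin28a+ libraries. Usp1 rose in RNA (0.38 ± 0.05) and in m6A (0.38 ± 0.05). Ino80d fell in RNA (-0.57 ± 0.16) and in m6A (-0.86 ± 0.10), as did Wrn (-0.67 ± 0.10 and -0.54 ± 0.17) and Fancm (-0.87 ± 0.18 and -0.59 ± 0.16). None of the Igf2bp3-only peaks of these last 3 genes passed edgeR's main test. Ercc5 RNA fell (-0.64 ± 0.09), and since its Igf2bp3-only peak lies in Bivm and both overlapped peaks lie in Ercc5, the share of reads described above does not compare parts of 1 gene.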

How the data were processed

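The authors aligned reads with Hisat2 and name MACS2 for peaks; the reference is given as GRCh38, a human assembly, in the methods and as GRCh38 and mm10 in the submitters' processing notes, while identifiers are those of mouse genes and spans of GRCm38.p6 fit the peaks. The counting program, the peak threshold and any pooling for peak calling are not given in the sources used here. Values in the Igf2bp3-RIP, Lin28a-RIP and m6A-RIP tables are raw read counts per peak or row, as the authors deposited them. Input values are estimated counts of genes, some with decimals, as deposited, and were rounded. Column names assigned libraries, except in the input table, where the Lin28a+ columns are named as m6A libraries and were assigned by the sample descriptions, and the Lin28a+ columns of the m6A-RIP table share 1 name. Neither pair has a usable replicate number.

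Peaks were compared by position without strand. CPM are counts scaled to 1000000 in peaks or genes per library, with TMM factors. Tests were edgeR 4.0.16 quasi-likelihood fits in R 4.3.3 over all 19465 peaks, 1115 genes with both classes and at least 10 counts per class, 11317 input genes or 9416 m6A genes, with TMM factors, filterByExpr and Benjamini-Hochberg adjustment at 0.05. The within-gene model held library, class and the interaction of class and group. Scripts were tested on simulated data. DESeq2 1.42.0, other size factors and filters, left-out libraries, a replicate block, other definitions of the classes and a pseudocount of 0.1 were tried. Counting carries no molecular identifiers. The biological coefficient of variation was 27.9% for peaks, 15.5% within genes, 2.48% for RNA and 5.74% for m6A.

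Named genes are the 5 highest and lowest by p in each test, those with most or strongest peaks, genes the study names, and up to 3 per list by within-gene p. Members and lists were chosen with earlier results of these data known. Some genes are left out of the results.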

Additional observations from a re-analysis of the deposited data

How the results depend on the processing

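Of 57 alternative values for the counts, medians and levels described, 41 stayed within 1.5 times the reported count or within the spread between libraries. The number of called Igf2bp3-only peaks, 1 in the main test, was 40 with DESeq2, 2 with RLE factors, 3 with total counts, 0 with at least 10 counts in every library (184 at an unadjusted p under 0.05) and 8 to 28 with 1 library left out. The last range ran from 8 without control replicate 2 over 14 without Lin28a+ replicate 2 and 16 without control replicate 1 to 28 without Lin28a+ replicate 1. The number of genes called in the within-gene test, 0 in the main test, was 6 with DESeq2 and 0 to 4 with 1 library left out (4 without Lin28a+ replicate 1 and 1 without Lin28a+ replicate 2), and 0 under the other size factors, filters and definitions of the classes. The median within-gene shift lay between -0.013 and 0.021 with 1 library left out, and with only peaks inside the span of their gene it was -0.016. The reported count of 714 genes that differ in RNA was 345 with DESeq2 (38 higher and 307 lower). The within-gene shift of Strbp reversed to -1.35 with peaks inside the span, where 1 of its 2 overlapped peaks remains, and that of Gtf2a1 was -0.20 there, against -1.61. The causes of the other differences were not tested.

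With a replicate block the test called 316 Igf2bp3-only peaks (127 higher, 189 lower), or 9.13% of them where 10.2% of all peaks were called, and 40 genes within genes (27 toward Igf2bp3-only and 13 toward overlapped peaks). The deviations of same-numbered libraries of the 2 groups correlated at 0.70 over all peaks, 0.66 over Igf2bp3-only peaks and 0.68 for the within-gene ratio. In both groups replicate 1 was the shallower Igf2bp3-RIP library. There are 2 numbers, and nothing in the labels ties a number to a shared batch. What same-numbered libraries share was not tested. No paired fit was made for RNA and m6A, whose Lin28a+ columns carry no number. In the alternative that required an overlap of 50%, peaks overlapped by less were left out of the overlapped class and not added to the Igf2bp3-only peaks. By that choice the set of Igf2bp3-only peaks stayed as it is, so the alternative gives no other value for their count. The shallowest library has 9215355 reads in peaks, and the biological coefficient of variation between libraries was 27.9% for peaks.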
